A study of Homo sapiens with 12 samples.

Results

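The serine/arginine-rich (SR) splicing factors and the CDC-like kinases (CLK) that phosphorylate them were followed through 12 RNA-seq libraries. The group holds 10 genes, picked out of the count files by their symbols; the list was drawn up with earlier results of these data known. They are the SR protein genes SRSF1, SRSF2, SRSF3, SRSF4, SRSF5, SRSF6, SRSF7 and SRSF11 and the kinase genes CLK1 and CLK4. They are 10 of the 60649 genes in the count files, and all 10 were among the 16683 genes with enough reads to be tested. The cells were SBC3, an established human small cell lung cancer line cultured as spheroids. They were left as control, given teriflunomide, given lurbinectedin, or given both drugs, with 3 libraries in each of the 4 groups. Teriflunomide inhibits DHODH, an enzyme of pyrimidine synthesis, and lurbinectedin binds DNA and disturbs transcription by RNA polymerase II. The sources used here state neither dose nor exposure time, and all groups are of 1 cell line, so the values describe this line only.

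SR proteins carry RNA-binding domains followed by a region rich in serine and arginine. They bind exons and nearby introns of newly made RNA, recruit the spliceosome, and decide in part which exons are kept. Kinases of the CLK and SRPK families phosphorylate the serines of that region, which governs where SR proteins sit in the cell and how they act. Most SR protein genes limit their own output through poison exons, which send the transcript to nonsense-mediated decay when included, and a part of the CLK1 and CLK4 transcripts is known to stay in the nucleus with introns unspliced. The values below are reads per gene, so coding and non-coding isoforms of a gene could not be told apart, nor could fewer cells and less RNA per cell. Levels are given in CPM, which are counts scaled to a common library size, and in CPM per kb of exon where genes are compared with each other.

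Total counts ran from 23206414 to 33222162 per library. The labels do not say whether the 3 libraries of a group came from separate cultures, so p-values measure only the spread between these libraries, which may be technical. Teriflunomide replicate 3 and combination replicate 2 stood apart: mitochondrially encoded genes took 22.6% and 24.9% of their counts, against 8.42% to 8.43% and 13.1% to 14.6% in the other libraries of their groups. Control libraries had 6.26% to 7.17% and lurbinectedin libraries 13.8% to 17.1%. Of the neuroendocrine markers, NEUROD1, SYP and DLL3 reached 1 CPM in control, while INSM1 and UCHL1 had no count in any of the 12 libraries. With lurbinectedin the mean of SYP went from 16.8 CPM in control to 30.9 and that of NEUROD1 from 4.03 to 1.62. EPCAM was near 0 and KRT8 was at 243 CPM in control, and the 4 epithelial markers summed to 236 to 252 CPM in control, 196 to 307 with teriflunomide, 400 to 433 in lurbinectedin libraries and 373 to 444 in combination libraries. KRT8 made up nearly all of these sums, as EPCAM, KRT18 and CDH1 had means of at most 0.199 CPM in any group. Of 6 fibroblast genes, COL1A1 (266 CPM) and COL1A2 (270 CPM) were abundant in control, LUM had no count and DCN had 1 count in all. The summed level of those 6 genes was 520 to 550 CPM in control and 466 to 485 with teriflunomide, and it was 187 to 221 CPM in lurbinectedin libraries and 198 to 227 in combination libraries. The part of these markers in the results below was not tested. The 5 leukocyte and 3 endothelial markers summed to at most 2.58 and 0.579 CPM in any library.

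The promoter sequences of 3 members are shown because these genes moved most: SRSF5 and CLK1 were higher with lurbinectedin and SRSF1 was lower. Each line gives the 200 bases just upstream of the start that RefSeq annotates (GRCh38.p14), read 5′ to 3′ in the direction of the gene. Capitals mark TGACG or its reverse complement CGTCA, which is the core of the element bound by CREB and ATF proteins, a motif picked after these sequences had been seen.
SRSF5, chr14:69766942-69767141, plus strand: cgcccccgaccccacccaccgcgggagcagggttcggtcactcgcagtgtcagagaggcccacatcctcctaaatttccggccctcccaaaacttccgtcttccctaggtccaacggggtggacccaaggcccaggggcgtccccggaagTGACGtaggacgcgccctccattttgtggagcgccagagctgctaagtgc
CLK1, chr2:200864659-200864858, minus strand: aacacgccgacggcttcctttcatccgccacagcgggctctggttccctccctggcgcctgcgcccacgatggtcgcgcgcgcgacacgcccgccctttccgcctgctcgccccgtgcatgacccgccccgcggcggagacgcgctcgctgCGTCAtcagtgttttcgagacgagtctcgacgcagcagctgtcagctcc
SRSF1, chr17:58007247-58007446, minus strand: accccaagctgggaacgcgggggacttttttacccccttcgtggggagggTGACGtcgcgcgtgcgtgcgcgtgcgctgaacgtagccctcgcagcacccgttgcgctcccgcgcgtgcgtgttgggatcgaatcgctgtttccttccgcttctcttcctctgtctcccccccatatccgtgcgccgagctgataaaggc
The gene models in the count files begin further upstream than RefSeq's for these 3 genes. Of the 9 members with an entry in the promoter table, 6 held TGACG or CGTCA within the 300-base window, which runs from 250 bases before the start to 50 after it. The other 5 besides SRSF1 were SRSF3, SRSF5, SRSF11, CLK1 and CLK4, and no match lay in the windows of SRSF4, SRSF6 and SRSF7. The motif was present on either strand in 24.6% of all 35116 windows of that list. The longer palindrome TGACGTCA was in none of the 9 and in 1.85% of all windows. The motif was present in windows of genes that rose with lurbinectedin (SRSF5 and CLK1) and of the gene that fell (SRSF1). A match in letters does not show that a factor binds there.

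In control cells SRSF2 was the most abundant member per length, at 90.2 ± 2.12 CPM per kb (SD, n = 3). SRSF3 followed at 63.0, SRSF7 at 48.2, SRSF6 at 33.0, SRSF1 at 27.2, SRSF5 at 21.5, SRSF11 at 19.6 and SRSF4 at 13.6 CPM per kb. The kinases were lower, with CLK1 at 5.61 ± 0.570 and CLK4 at 1.44 ± 0.0906 CPM per kb (SD, n = 3). No neighbours in this order overlapped between the 3 control libraries. With lurbinectedin SRSF2 stayed first at 103 CPM per kb, while SRSF1 took the eighth place at 12.2 CPM per kb, overlapping CLK1 at 10.8. With the combination SRSF7, SRSF6 and SRSF3 lay between 49.1 and 49.9 CPM per kb and could not be ranked, and SRSF1 (14.9) and CLK1 (14.6) again overlapped.

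Lurbinectedin alone lowered SRSF1 and raised SRSF4, SRSF5, SRSF6 and CLK1 against control, while SRSF2, SRSF3, SRSF7, SRSF11 and CLK4 did not pass the threshold. A difference was called where edgeR's quasi-likelihood test over all genes gave a p under 0.05 after Benjamini-Hochberg adjustment. That made 4 of 10 members higher and 1 lower, beside 36.0% of all tested genes called higher and 35.7% called lower, so the share of members called was no larger than that of all genes. The median log2 fold change of the 10 members was 0.27, and that of all tested genes was 0.05. When library size was the only scaling, the median of all genes was -0.18 and 39.2% of the calls were higher, against 50.2% in the reported fit. SRSF2, SRSF7 and SRSF11 then had log2 changes of -0.04, -0.04 and -0.05, with a sign opposite to that given below.

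**Figure D1:**
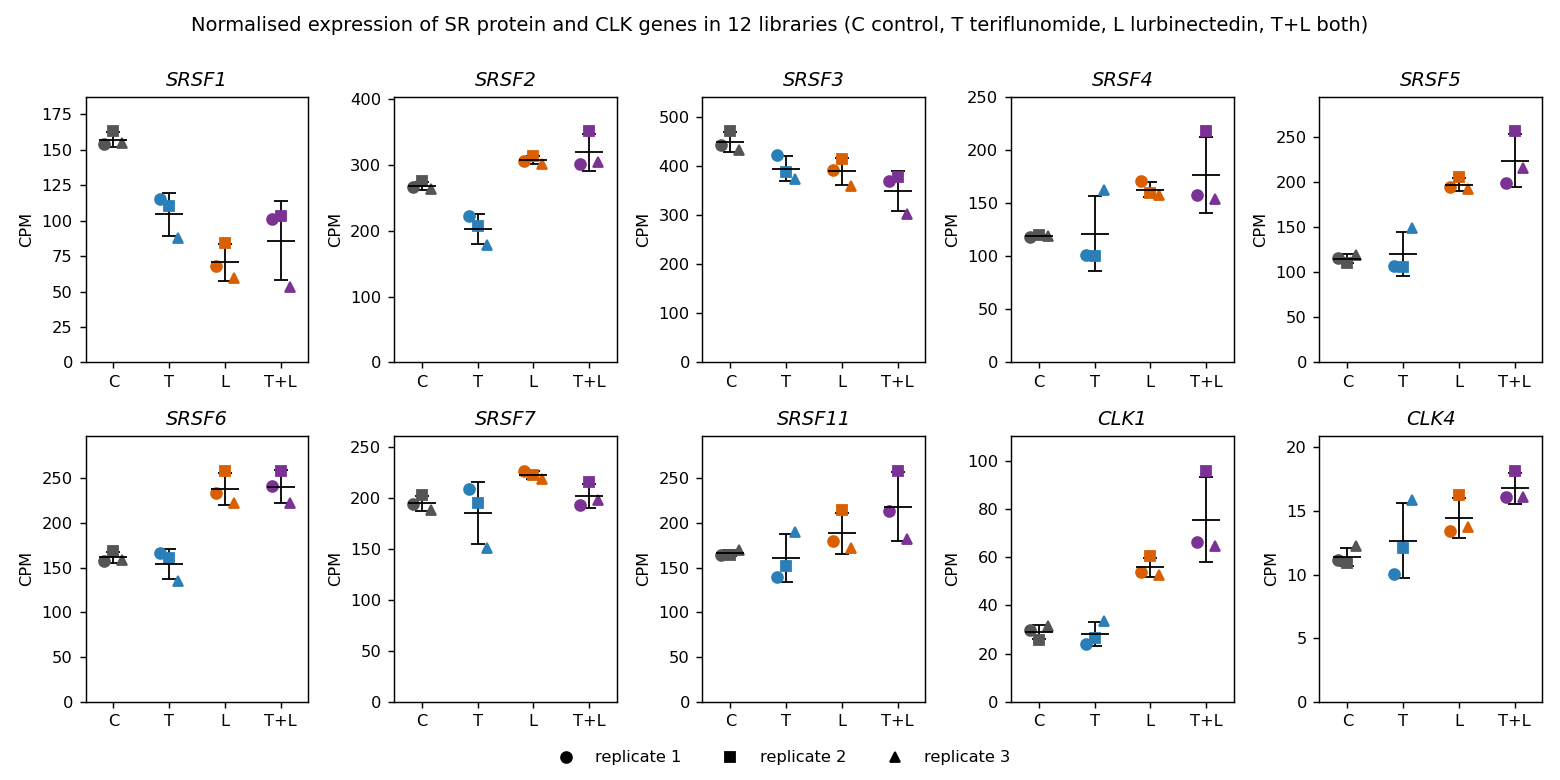
CPM of each of the 10 genes (vertical axis, linear from 0) in the 3 libraries of each group (horizontal axis), with a long bar for the mean and whiskers for the SD. SRSF1 runs from 154 to 163 CPM in control and from 59.3 to 84.4 with lurbinectedin, whereas CLK1 runs from 25.7 to 31.3 and from 52.8 to 60.4.

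SRSF1 (ENSG00000136450, hg38 chr17:58000919-58007346, minus strand) encodes the SR protein long studied as a splicing activator and as an oncoprotein. Its level was 154, 163 and 155 CPM in control replicates 1 to 3, 116, 110 and 87.6 with teriflunomide, and 67.9, 84.4 and 59.3 with lurbinectedin. The combination libraries were at 101, 103 and 53.5 CPM. Every library exposed to a drug was below every control library, and the combination libraries spanned a wider range than those of either drug alone. The log2 fold change with lurbinectedin was -1.16 ± 0.21 (SE; adjusted p = 0.000208), a level 2.23-fold lower. It remained called under each of the 16 alternatives run for it, between -1.39 and -1.05.

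SRSF3 (chr6:36594353-36605600, plus strand), a short SR protein with roles in mRNA export and 3′ end choice, had the largest read count of the group. It stood at 443, 471 and 432 CPM in control and at 393, 415 and 359 with lurbinectedin. The groups did not overlap, but the log2 difference of -0.21 ± 0.10 did not pass the test in the fit of all 4 groups (adjusted p = 0.0854). It passed when only the 2 groups were fitted (-0.22, adjusted p = 0.000443), in DESeq2 (-0.25, 0.0451) and without teriflunomide replicate 3 and combination replicate 2 (-0.22, 0.0121). It also passed with library size (-0.44, adjusted p = 0.00648) or nuclear library size (-0.29, 0.0124) as the only scaling.

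SRSF5 (ENSG00000100650, chr14:69726900-69772005, plus strand), an SR protein known as an early response gene of growth and insulin signals, rose more than any other SR member with lurbinectedin. Its levels were 115, 110 and 120 CPM in control and 194, 206 and 192 with lurbinectedin. All 3 exposed libraries lay far above the controls. The log2 fold change was 0.78 ± 0.13 (SE; adjusted p = 0.000127), and it held under all 16 alternatives between 0.54 and 0.82. The promoter shown above is that of this gene.

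SRSF6 (chr20:43457893-43466046, plus strand), an SR protein that can both activate and repress alternative exons, was at 157, 168 and 159 CPM in control and at 234, 258 and 223 with lurbinectedin. The groups did not overlap and the log2 fold change was 0.56 ± 0.10 (adjusted p = 0.000238). With library size as the only scaling it was 0.33 and not called (adjusted p = 0.0598). SRSF4 (chr1:29147743-29181900, minus strand), the SR protein with the longest serine/arginine region, was at 118, 120 and 119 CPM in control and 171, 159 and 158 with lurbinectedin. Its groups did not overlap, and its log2 fold change was 0.45 ± 0.17 (adjusted p = 0.0319). The SRSF4 call was lost when any single control or lurbinectedin library was left out (adjusted p from 0.0540 to 0.0923), in DESeq2 (0.0541) and with library size as the only scaling (0.108). Without teriflunomide replicate 3 and combination replicate 2, whose spread enters the shared fit, its adjusted p was 1.01e-06 at a log2 fold change of 0.44.

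SRSF2, SRSF7 and SRSF11 were a little higher with lurbinectedin and not called in the fit of all groups. SRSF2 (chr17:76734115-76737333, minus strand), an SR protein that is mutated in myeloid neoplasms, was at 267, 275 and 263 CPM in control and 307, 314 and 301 with lurbinectedin. SRSF7 (chr2:38743599-38751494, minus strand), a zinc knuckle SR protein and export adaptor, was at 194, 203 and 188 CPM in control and 227, 223 and 219 with lurbinectedin. SRSF11 (chr1:70205682-70253052, plus strand), a more distant relative that binds to the U2AF splicing factor, was at 165, 165 and 170 CPM in control and 179, 214 and 172 with lurbinectedin. For each of these genes the lowest lurbinectedin library lay above the highest control library, for SRSF11 at 171.5 against 169.9 CPM. This is a description only, as the share of all genes whose groups were separate was not counted. In this contrast 12306 of the 16683 tested genes had an unadjusted p under 0.05 in edgeR. The log2 differences of SRSF2, SRSF7 and SRSF11 were 0.20 (95% interval -0.02 to 0.41), 0.19 (-0.05 to 0.43) and 0.18 (-0.13 to 0.48). Their adjusted p were 0.0881, 0.132 and 0.270. Fitting only the lurbinectedin and control libraries gave 0.18, 0.17 and 0.16, and all 10 members then passed, beside 42.1% of all genes higher and 41.7% lower. Without teriflunomide replicate 3 and combination replicate 2, 9 of 10 passed, all but SRSF11, beside 40.4% higher and 39.2% lower.

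CLK1 (ENSG00000013441, chr2:200853009-200864744, minus strand), a dual-specificity kinase that phosphorylates SR proteins in the nucleus, was at 29.9, 25.7 and 31.3 CPM in control. It was at 54.1, 60.4 and 52.8 CPM with lurbinectedin, and combination libraries were at 66.5, 96.0 and 64.5. The lowest combination library lay above the highest lurbinectedin library, and both groups lay far above control. With lurbinectedin the log2 fold change was 0.94 ± 0.17 (SE; adjusted p = 0.000173), or 1.92-fold, the largest rise in the group. It passed under all 16 alternatives, between 0.71 and 0.999.

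CLK4 (chr5:178602664-178630615, minus strand), the close relative of CLK1 with the same substrates, was the lowest member. It was at 11.1, 10.9 and 12.2 CPM in control, 13.4, 16.2 and 13.7 with lurbinectedin, whereas the combination libraries were at 16.1, 18.2 and 16.1 CPM. The log2 difference with lurbinectedin was 0.34 (95% interval 0.00 to 0.68; adjusted p = 0.0671) and was not called; it passed with the filter at 1 CPM (adjusted p = 0.0416). Per length, the ratio of CLK1 to CLK4 was 3.89 ± 0.253 in control and 3.42 ± 0.223 with teriflunomide (SD, n = 3). It was 5.93 ± 0.235 in lurbinectedin libraries and 6.86 ± 1.08 in combination libraries. The control and lurbinectedin ratios did not overlap. Only the level of CLK1 was called with lurbinectedin, and the ratio is described here and was not tested.

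The combination against control gave the largest number of calls: 7 members were higher, 2 were lower, and SRSF7 did not pass. The share of all tested genes called was 34.1% higher and 34.4% lower, and the median log2 fold change was 0.47 for the members and 0.04 for all genes. CLK1 rose by 1.38 ± 0.17 on the log2 scale (adjusted p = 5.92e-06), or 2.61-fold. SRSF5 was at 200, 257 and 216 CPM with the combination, a rise of 0.96 ± 0.13 (adjusted p = 2.08e-05). SRSF6 rose by 0.57 to 241, 259 and 222 CPM, SRSF4 by 0.57 to 158, 218 and 154 CPM, and CLK4 by 0.56 (adjusted p = 0.000212, 0.0101 and 0.00636). SRSF11 rose by 0.39 to 214, 259 and 182 CPM and SRSF2 by 0.25 to 302, 351 and 304 CPM (adjusted p = 0.0253 and 0.0360). Combination replicate 2 was the highest of its group for every one of these 7 genes, and also for SRSF1, SRSF3 and SRSF7. Its TMM factor was 0.830, against 1.01 and 1.07 in replicates 1 and 3. For the sum of the 8 SR genes the order depended on this scaling. With library size only, replicate 2 had the lowest sum of the group, 1690 CPM against 1792 and 1750 in replicates 1 and 3. Unscaled counts in replicate 2 were still the largest for CLK1 (2278 against 1836 and 2023) and SRSF4 (5167 against 4370 and 4820). For SRSF11 they were 6134 against 5897 and 5696. The library totals were 28612170 in replicate 2 against 27388212 and 29207897.

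SRSF1 fell by 0.87 ± 0.21 on the log2 scale with the combination (adjusted p = 0.00201), and SRSF3 fell by 0.36 ± 0.10 to 368, 377 and 303 CPM (adjusted p = 0.00649). SRSF7 stood at 193, 215 and 197 CPM, within the control range apart from replicate 2, with a log2 difference of 0.05 (95% interval -0.19 to 0.29). Without combination replicate 2, the log2 values of SRSF4, SRSF11 and SRSF2 were 0.38, 0.24 and 0.17 and no longer passed (adjusted p = 0.0605, 0.138 and 0.167), which left 6 calls. SRSF2 and SRSF11 also lost their calls without any single control library (adjusted p from 0.0554 to 0.112) and with library size as the only scaling, at 0.07 and 0.20 (adjusted p = 0.665 and 0.118), and SRSF2 in DESeq2 (0.0782) and with no filter (0.289).

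**Figure D2:**
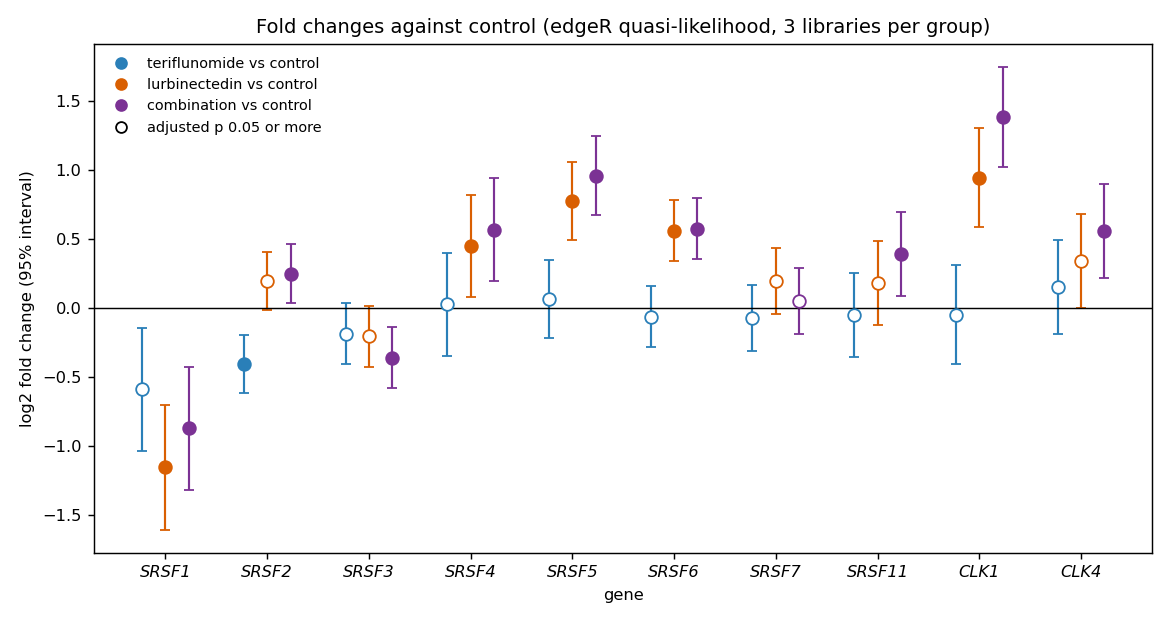
Log2 fold change against control (vertical axis) for each of the 10 genes (horizontal axis), with 95% intervals and 3 libraries per group, for teriflunomide, lurbinectedin and the combination. Filled points passed an adjusted p of 0.05; SRSF1 lies at -1.16 and CLK1 at 0.94 with lurbinectedin, and at -0.87 and 1.38 with the combination. The 3 comparisons share the control libraries.

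Teriflunomide alone lowered SRSF2 and gave no other call among the members: 0 of 10 were higher and 1 was lower, beside 3.88% and 2.13% of all tested genes. Of the members 2 had an unadjusted p under 0.05, and DESeq2 also called 1 of 10. With nuclear library size as the only scaling, 75.0% of the calls over all genes were higher, against 64.6% in the reported fit. SRSF2 was at 222, 208 and 178 CPM against 267, 275 and 263 in control, with every teriflunomide library below every control library. Its log2 fold change was -0.41 ± 0.10 (SE; adjusted p = 0.0297). The call was lost without any single control library or without teriflunomide replicate 2 (adjusted p from 0.0622 to 0.125), with scaling by library size alone (0.0988) and with only the 2 groups fitted (0.0791), while without teriflunomide replicate 3 and combination replicate 2 together it was -0.32 (adjusted p = 0.00178).

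SRSF1 was lower in every teriflunomide library as well, with a log2 difference of -0.59 (95% interval -1.04 to -0.15) that did not pass after adjustment (adjusted p = 0.104). It passed when no expression filter was applied (-0.61, adjusted p = 0.000492). SRSF3 was at 422, 387 and 373 CPM, with a difference of -0.19 (-0.41 to 0.03). For the other 7 members the log2 differences lay between -0.08 and 0.15, and their intervals reached from -0.41 at the lowest to 0.49 at the highest.

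Behind these small mean differences the teriflunomide libraries were split. In teriflunomide replicate 3, the library with 22.6% mitochondrially encoded counts, SRSF4 was at 162 CPM against 101 and 101 in replicates 1 and 2. SRSF5 was at 149 against 107 and 106, SRSF11 at 190 against 140 and 152, CLK1 at 33.7 against 24.03 and 26.3, and CLK4 at 15.9 against 10.02 and 12.1 CPM. The size of these gaps depends on the scaling, as the TMM factor was 0.884 in replicate 3 against 1.09 and 1.12. Unscaled counts were 4761 against 3451 and 3361 for SRSF4, and 4372 against 3653 and 3550 for SRSF5. They were 5585 against 4768 and 5080 for SRSF11, 990 against 820 and 878 for CLK1, and 466 against 342 and 404 for CLK4. The library totals were 33222162 in replicate 3 against 31303908 and 29845731. The other members were lower there: SRSF7 was at 151 against 209 and 195 CPM, SRSF6 at 135 against 167 and 161, and SRSF1, SRSF2 and SRSF3 also had their lowest teriflunomide value in that library. Without it and combination replicate 2, SRSF4 was lower with teriflunomide (-0.24, adjusted p = 0.0175), and SRSF5 (-0.11), SRSF6 (0.02), SRSF7 (0.05) and CLK4 (-0.05) changed sign and remained uncalled. SRSF2 and SRSF4 were then the 2 members called, beside 9.20% of all genes higher and 7.07% lower. Whether the mitochondrial share has a part in these values was not tested.

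**Figure D3:**
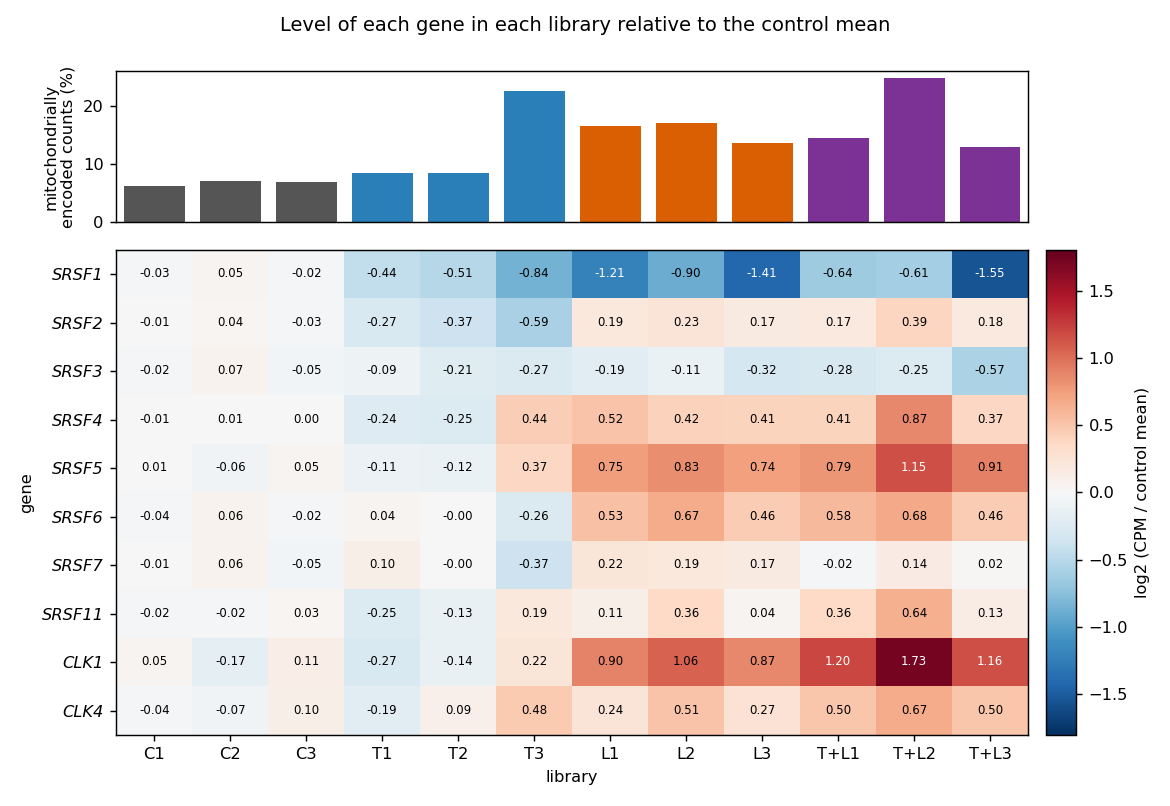
Upper panel: percent of counts on mitochondrially encoded genes in each of the 12 libraries (C control, T teriflunomide, L lurbinectedin, T+L combination, with the replicate number). Lower panel: log2 ratio of each gene's CPM to its control mean, by library; SRSF4 is at 0.44 in T3 against -0.24 and -0.25 in T1 and T2, and CLK1 is at 1.73 in T+L2 against 1.16 in T+L3.

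The combination and lurbinectedin alone were not told apart for any member: edgeR called 0 of 10, and DESeq2 called 0 of 10. Among all tested genes 0.0% were called higher and 0.0% lower by edgeR, with 2599 genes at an unadjusted p under 0.05, while DESeq2 called 551. CLK1 was the 1 member with an unadjusted p under 0.05, with a log2 difference of 0.44 (95% interval 0.08 to 0.79; adjusted p = 0.242). For SRSF1 the difference was 0.28 (-0.16 to 0.73), for SRSF11 0.21 (-0.09 to 0.51), for CLK4 0.21 (-0.12 to 0.55) and for SRSF5 0.18 (-0.10 to 0.47). SRSF3 and SRSF7 differed by -0.15 (-0.37 to 0.07) and -0.14 (-0.38 to 0.10), and SRSF2, SRSF4 and SRSF6 by 0.05, 0.12 and 0.01. These intervals allow changes of the size seen for SRSF6 with lurbinectedin in SRSF1 and CLK1, so they do not show that the groups were alike. Without teriflunomide replicate 3 and combination replicate 2, CLK1 differed by 0.23 (adjusted p = 0.0770) and SRSF7 alone was called, at -0.19 (adjusted p = 0.0477), beside 11.4% of all genes higher and 10.1% lower.

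Against teriflunomide alone, the combination was higher for 7 of 10 members and lower for 0, beside 35.2% and 35.8% of all genes. The calls were SRSF2 (0.65), SRSF4 (0.54), SRSF5 (0.89), SRSF6 (0.64), SRSF11 (0.44), CLK1 (1.43) and CLK4 (0.41), all on the log2 scale. SRSF4 and SRSF11 overlapped between the groups through teriflunomide replicate 3. SRSF1, which was not called with teriflunomide against control, differed by -0.28 (95% interval -0.73 to 0.16), and SRSF3 by -0.17 (-0.39 to 0.05). Without teriflunomide replicate 1, or without combination replicate 2, the calls of SRSF4, SRSF11 and CLK4 were lost and 4 remained; without teriflunomide replicate 2 those of SRSF4 and CLK4 were lost. Fitting only the 2 groups also lost the calls of SRSF4, SRSF11 and CLK4 (adjusted p = 0.0564, 0.0516 and 0.104), and CLK4 was not called with library size as the only scaling (0.0644) or with no filter (0.0709).

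The interaction asks whether teriflunomide had another effect with lurbinectedin than without it. No member passed (0 of 10, with edgeR and with DESeq2), beside 0.036% of all genes higher and 0.222% lower, which were 6 and 37 genes; with library size as the only scaling these were 2 and 4. Of the members 2 had an unadjusted p under 0.05. SRSF1 had an interaction of 0.88 ± 0.29 on the log2 scale (adjusted p = 0.323): teriflunomide went with a difference of -0.59 from control and of 0.28 from lurbinectedin. SRSF2 had 0.46 ± 0.14 (adjusted p = 0.256), from -0.41 and 0.05. CLK1 had 0.49 ± 0.23 (adjusted p = 0.506). SRSF1, SRSF2 and CLK1 come first here because their p-values were the smallest of the members. The other values were closer to 0: SRSF3 0.03, SRSF4 0.09, SRSF5 0.12, SRSF6 0.08, SRSF7 -0.07, SRSF11 0.26 and CLK4 0.07. The median over the 10 members was 0.10, and that of all tested genes was 0.02. Without teriflunomide replicate 3 and combination replicate 2 the values of SRSF2 (0.30, adjusted p = 0.0358) and CLK1 (0.44, adjusted p = 0.0397) passed, beside 5.88% of all genes higher and 4.97% lower, and that of SRSF1 was 0.61 (adjusted p = 0.354). With no filter SRSF1 passed, at 0.91 (adjusted p = 0.0011).

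The make-up of the SR pool, taken as each gene's share of the reads on the 8 SR genes, needs no scaling between libraries. SRSF1 made up 9.64% ± 0.102 of these reads in control, 7.23% ± 0.944 with teriflunomide and 3.95% ± 0.503 with lurbinectedin (SD, n = 3), and 4.68% ± 1.25 of them in combination libraries. SRSF3 went from 27.5% ± 0.586 in control to 21.9% ± 0.465 with lurbinectedin, and was at 19.3% ± 1.27 in combination libraries. SRSF5 went the other way, from 7.07% ± 0.444 to 11.1% ± 0.257 and 12.3% ± 1.03, and SRSF6 from 9.90% ± 0.144 to 13.4% ± 0.318 and 13.3% ± 0.523. SRSF2 was at 16.5% in control and 17.3% with lurbinectedin, and at 14.0% with teriflunomide. Read counts of SRSF5 were 0.734 ± 0.0512 times those of SRSF1 in control, 1.197 ± 0.436 times with teriflunomide and 2.85 ± 0.404 times with lurbinectedin. In combination libraries they were 2.83 ± 1.07 times as many. Thus in every control library SRSF1 had more reads than SRSF5, and in every lurbinectedin and combination library fewer. The teriflunomide ratios were 0.926, 0.966 and 1.70, so SRSF1 had more reads than SRSF5 in replicates 1 and 2 and fewer in replicate 3. CLK1 reads per SRSF1 read were 0.185 ± 0.0240 in control and 0.801 ± 0.0876 with lurbinectedin.

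**Figure D4:**
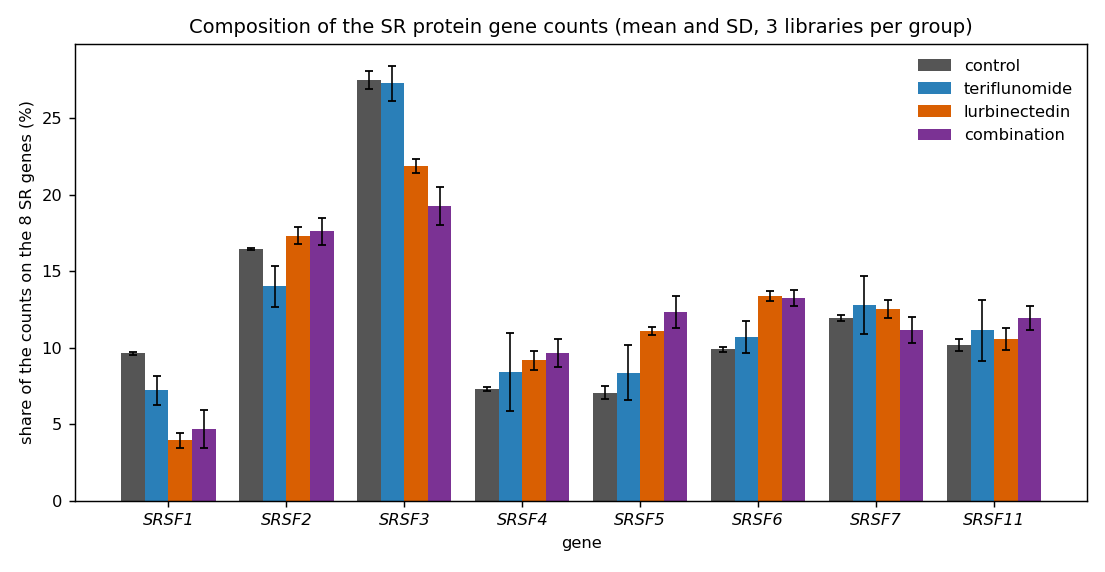
Percent of the reads on the 8 SR genes that fell on each gene (vertical axis, from 0), as the mean and SD of 3 libraries, by gene and treatment. SRSF1 falls from 9.64% in control to 3.95% with lurbinectedin, and SRSF5 stands at 7.07% and 11.1%.

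The summed level of the 8 SR genes was 1632 ± 37.6 CPM in control, 1443 ± 35.2 with teriflunomide and 1776 ± 94.8 with lurbinectedin (SD, n = 3), and combination libraries had 1815 ± 206 CPM. The teriflunomide sum was below control under each of the 3 scalings tried, at 0.884, 0.838 and 0.897 of it. For lurbinectedin the direction depended on the scaling: the sum was 1.09 times control as reported, 0.925 times with library size only and 1.02 times with nuclear library size. The combination sum likewise was 1.11, 0.981 and 1.11 times control. The sums are a description with no test.

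Genomic span, the distance from the first to the last exon, went with the response to lurbinectedin over all genes, so each member was set beside genes of its own span. SRSF1, SRSF3, SRSF6, SRSF7 and CLK1 belong to the 3330 genes spanning 5.26 to 16.3 kb, of which 56.9% were called higher and 12.3% lower; their median log2 fold change was 0.62. In that class SRSF6 (0.56) was near the median, CLK1 (0.94) above it, SRSF7 (0.19) and SRSF3 (-0.21) below it, and SRSF1 (-1.16) was among the 12.3% that fell. SRSF4 (0.45) and CLK4 (0.34) were near the median of 0.28 of genes spanning 16.3 to 35.9 kb. SRSF11 spans 47.4 kb and had 0.18, in a class of 35.9 to 82.9 kb with a median of -0.36, where 49.1% of genes were called lower. SRSF5 was placed in that class by the 45.1 kb span in the count files, whereas RefSeq gives it 4.86 kb; for SRSF1 the files give 6.43 kb and RefSeq 18.2 kb. SRSF2, spanning 3.22 kb, was below the median of 0.69 of the shortest class. The longest class, above 82.9 kb, held no member and had a median of -1.86.

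Of the 4 remaining SR protein genes 3 were tested, and 1 was called with lurbinectedin. SRSF8 had almost no reads and was not tested. SRSF9 was at 325 ± 3.51 CPM in control and 277 ± 5.76 with lurbinectedin and was not called (log2 -0.23, adjusted p = 0.204). SRSF10, which represses splicing when it is dephosphorylated under heat stress, was at 208 ± 5.73 and 211 ± 16.3 CPM. SRSF12, a relative known to oppose other SR proteins, fell from 10.6 ± 0.673 to 6.46 ± 0.349 CPM with lurbinectedin (log2 -0.71, adjusted p = 0.00431). None of the 3 tested was called with teriflunomide or with the combination against control.

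Of the 6 other kinases of SR proteins that were tested, 2 were called higher and 3 lower with lurbinectedin. CLK2 rose from 78.7 ± 2.83 to 126 CPM (log2 0.68 ± 0.12, adjusted p = 0.000151), and CLK3 from 40.7 ± 0.947 to 60.2 ± 2.03 CPM (0.57 ± 0.10, adjusted p = 0.000198). CLK1 was called higher as well, and CLK4, at 0.34, was not. SRPK1, which phosphorylates SR proteins in the cytoplasm and promotes their import, fell from 209 ± 6.13 to 83.6 ± 7.92 CPM (log2 -1.32 ± 0.12, adjusted p = 2.41e-07). SRPK2 fell from 67.4 ± 3.05 to 5.80 ± 1.12 CPM (-3.53 ± 0.22, adjusted p = 6.89e-09). DYRK1A, a kinase outside both families that also acts on splicing factors, fell from 76.5 ± 5.49 to 23.9 ± 0.995 CPM (-1.68 ± 0.13). The spans of these 3 genes are 88.4, 289 and 161 kb, within the class of which 83.7% were called lower. PRPF4B, a kinase of the spliceosome, was at 129 and 126 CPM and was not called, and SRPK3 had too few reads to test. With the combination the same 5 kinases were called, CLK2 (0.89) and CLK3 (0.63) higher and SRPK1 (-1.22), SRPK2 (-3.01) and DYRK1A (-1.31) lower. With teriflunomide alone none of the 6 tested was called.

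Proteins that carry serine/arginine regions but are not classed as SR proteins mostly rose with lurbinectedin: 20 of 28 were called higher and 2 lower, and their median log2 fold change was 0.62. The largest rises were those of RSRP1, from 13.9 ± 1.65 to 69.7 ± 8.22 CPM (2.33 ± 0.15, adjusted p = 8.41e-09), and of CCNL2, a cyclin L gene tied to splicing, from 21.9 ± 0.791 to 53.8 ± 5.79 CPM (1.30 ± 0.16). RSRP1 spans 96.0 kb, within the class of which 83.7% were called lower, and CCNL2 spans 13.6 kb. RSRC1 fell from 28.3 ± 2.69 to 0.976 ± 0.367 CPM (-4.88 ± 0.32; span 440 kb) and THRAP3 from 374 to 251 CPM (-0.58 ± 0.11; span 80.9 kb). With the combination 22 were called higher and 2 lower. The heterogeneous nuclear ribonucleoproteins, which often oppose SR proteins at exons, had 6 of 21 called higher and 12 lower with lurbinectedin, with a median of -0.49. HNRNPAB (0.98) and HNRNPF (0.71) rose most, and PTBP2 (-1.54), a neuronal splicing repressor, and HNRNPA3 (-1.08) fell most. In that order they span 6.63, 23.6, 102 and 11.4 kb. With the combination 6 were higher and 10 lower.

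Of 28 core spliceosome genes 16 were called higher and 3 lower with lurbinectedin (median 0.32), and 10 and 3 with the combination (median 0.02). The U2 snRNP genes SF3B4 (1.71) and SF3A2 (1.64) rose most, and SF3B3 (-0.49) and PRPF6 (-0.39) fell most. In that order they span 4.49, 11.8, 53.9 and 52.0 kb. Of 10 genes for nonsense-mediated decay, the pathway that removes transcripts with poison exons, 4 were called higher and 3 lower. UPF1, its central helicase, rose from 158 ± 7.53 to 441 ± 36.8 CPM (1.49 ± 0.14, adjusted p = 3.67e-07), and SMG8 rose by 1.18 on the log2 scale. SMG6, the endonuclease of the pathway, fell from 68.2 ± 3.43 to 12.02 ± 0.122 CPM (-2.50 ± 0.10, adjusted p = 1.67e-10, span 244 kb), and SMG1 fell by 0.54 on the log2 scale. UPF1, SMG8 and SMG1 span 36.3, 5.84 and 122 kb. These lists are described by their counts. Those with lurbinectedin are to be read beside the 36.0% higher and 35.7% lower over all genes. Those with the combination stand beside 34.1% higher and 34.4% lower.

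**Figure D5:**
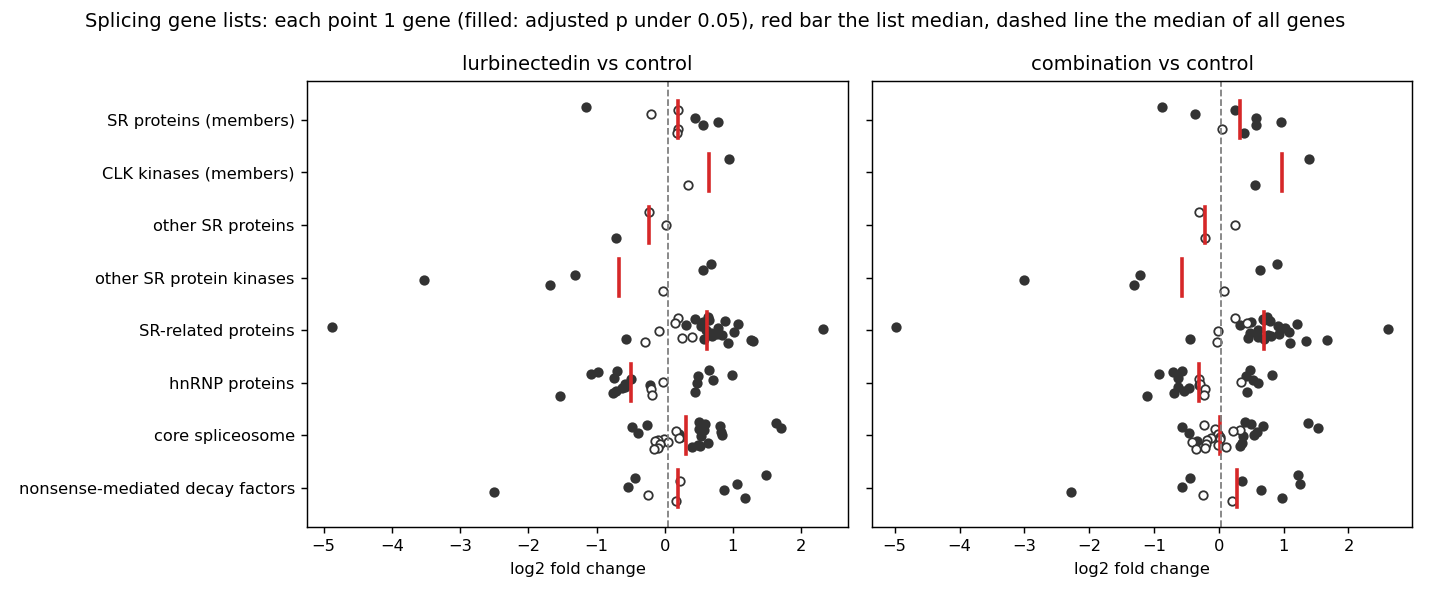
Log2 fold change (horizontal axis) of each tested gene in 8 lists of splicing and decay genes (rows) with lurbinectedin and with the combination against control; filled points passed an adjusted p of 0.05, red bars are list medians and the dashed line is the median of all tested genes. The medians with lurbinectedin are 0.62 for the SR-related genes and -0.49 for the hnRNP genes.

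To name the gene most like each member, log2 CPM centred on the control mean was compared over the 12 libraries with 10302 genes that have a symbol and at least 5 CPM on average; likeness is the root-mean-square difference, smaller being more alike. SRSF5 was closest to DDX5 (0.0672), which encodes an RNA helicase, and SRSF2 to MAT2A (0.0629), which encodes the enzyme that makes S-adenosylmethionine. SRSF3 was closest to OSTC (0.0638), SRSF4 to NEK2 (0.0727), SRSF6 to CCNE1 (0.0784), SRSF7 to WDR1 (0.0784) and SRSF11 to ERI2 (0.0833). CLK4 was closest to ZNF181 (0.101) and CLK1 to HOXB3 (0.147). SRSF1 had the most distant nearest gene, RBM3 (0.211), a cold-inducible RNA-binding protein gene with log2 changes of -0.40, -1.03 and -1.09 for teriflunomide, lurbinectedin and both drugs. Among the members themselves the closest pairs were SRSF4 with CLK4 (0.159), SRSF11 with CLK4 (0.178) and SRSF2 with SRSF7 (0.194). CLK1 was nearest to SRSF5 (0.245), and the most unlike pair was SRSF1 with CLK1 (1.61). These distances share the 12 libraries and their depth and are a description.

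Several members share exon bases with other genes, and the use of strand in counting is not given in the sources used here. SRSF2 shares 35.8% of its exon length with MFSD11 on the opposite strand, which had 4786 counts over the 12 libraries against 93627 for SRSF2. SRSF1 shares 32.7% with a same-strand gene that had 1 count and 7.61% with an opposite-strand gene that had 726 counts, against 36957 for SRSF1. Reads from shared bases cannot be assigned to either gene with certainty, which makes the values of SRSF1 and SRSF2 uncertain to that extent. Pseudogene copies listed in the files held at most 0.0594% of the counts of their parent member.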

How the data were processed

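The 12 SBC3 spheroid libraries came from RNA isolated on RNeasy Plus Mini columns and were built with the KAPA mRNA HyperPrep kit, per the labels' protocols. The submitters' processing notes name fastp 0.23.2, STAR 2.7.9, Subread, featureCounts and hg38; the annotation release, strand use and treatment of multi-mapping reads are not given in the sources used here. The authors deposited 1 table of unscaled gene counts per library. The 37318 identifiers whose version is also in GENCODE 29 had identical positions there, SRSF11 alone among the members.

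Libraries were scaled by TMM and genes kept by filterByExpr in edgeR 4.0.16 (R 4.3.3). The 12 libraries entered a robust quasi-likelihood fit with a mean for each group (8 residual degrees of freedom), and 6 contrasts were tested, adjusted over all genes by the Benjamini-Hochberg method. The code was tested on simulated data. CPM uses TMM-scaled library sizes, and nuclear library size leaves out the 37 mitochondrially encoded genes. Alternatives were size factors of DESeq2 1.42.0, library size and nuclear library size as the only scaling, no filter, a filter at 1 CPM in 3 libraries, a replicate block, an adjusted p under 0.01, only the groups compared, DESeq2 itself, each library left out, and 2 libraries left out together, added after seeing the data.

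The members, gene lists and tests were chosen with earlier results of these data known. All members and all genes of the lists of other SR proteins and other kinases are named, whatever their values; from each other list the 2 largest rises and 2 largest falls called with lurbinectedin against control, with at least 5 CPM in the higher group. Likeness used log2 CPM with a prior count of 2. Promoter sequences are from RefSeq (GRCh38.p14); 9 of 10 members matched.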

Additional observations from a re-analysis of the deposited data

How the results depend on the processing

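For the members, 53 log2 fold changes were followed through 863 combinations with an alternative. The alternative at an adjusted p under 0.01 reuses the reported fit, so there only the call could change. For the interaction only SRSF1, SRSF2 and CLK1, which had the smallest p, were followed. Of the combinations 759 kept direction and side of the threshold, 50 lost a call, 21 gained one in the same direction and 33 changed sign. Of those that changed sign 1 (SRSF4 with teriflunomide, without both libraries named next) also gained a call. The cause was not tested. The number of members called with teriflunomide against control was 1 as reported, 0 with library size as the only scaling, the replicate block, an adjusted p under 0.01 or only the groups compared, 2 with no filter or without both teriflunomide replicate 3 and combination replicate 2, and 0 to 1 with 1 library left out. With lurbinectedin it was 5 as reported, 4 with library size as the only scaling, at an adjusted p under 0.01 or without any single control or lurbinectedin library, 6 with nuclear library size, 7 with the filter at 1 CPM, 10 with only the groups compared and 9 without both libraries. With the combination it was 9 as reported, 7 with library size as the only scaling, 8 with no filter or in DESeq2, 6 at an adjusted p under 0.01 and 6 to 9 with libraries left out. Against lurbinectedin the combination had 0 as reported and 1 without both libraries. Against teriflunomide it had 7 as reported, 4 at an adjusted p under 0.01 or with only the groups compared, and 4 to 8 with libraries left out, 8 being without both. The interaction had 0 as reported, 1 with no filter (SRSF1) and 2 without both libraries.

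Sign changes with library size as the only scaling were SRSF4 (-0.0899) and SRSF5 (-0.0375) with teriflunomide, SRSF2 (-0.0386), SRSF7 (-0.0414) and SRSF11 (-0.0548) with lurbinectedin, and SRSF7 (-0.123) with the combination. With no filter they were SRSF4 with teriflunomide (-0.0085) and SRSF7 with the combination (-0.011), and with only the groups compared SRSF4 with teriflunomide (-0.0056). With libraries left out, singly or both together, the values that changed sign ran as follows. With teriflunomide, SRSF4 ran from -0.243 to 0.145, SRSF5 from -0.114 to 0.153, SRSF6 from -0.122 to 0.0205, SRSF7 from -0.170 to 0.0504, SRSF11 from -0.191 to 0.0424, CLK1 from -0.206 to 0.0509 and CLK4 from -0.0471 to 0.294. SRSF7 with the combination against control ran from -0.0070 to 0.0792. Against lurbinectedin the combination ran from -0.0179 to 0.0993 for SRSF2, -0.0584 to 0.207 for SRSF4 and -0.0378 to 0.0841 for SRSF6, and against teriflunomide from -0.0574 to 0.213 for SRSF7.

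Same-numbered libraries did not deviate together: of 18 such pairs 1 had a correlation over 0.1, the range was -0.402 to 0.144, and 0 libraries correlated best with their own number. These values gave no sign of pairing by number, but they cannot exclude that same-numbered libraries were handled together. The replicate block took the teriflunomide calls from 1 to 0 (SRSF2, adjusted p = 0.0541) and left 5, 9, 0, 7 and 0 in the other contrasts. Low counts limit CLK4 most, at 277 to 505 reads per library.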
